A study of Mus musculus with 9 samples.

Results

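Potassium channel subunit genes were compared between mesenchymal cells of thymus, bone and skin. The members were all genes in the count tables whose symbol follows the Kcn pattern of a channel subunit (Kcna1 to Kcnv2), 91 genes of 23420 counted, and 1 further gene with such a symbol is not analysed here. The cells were sorted from C57BL/6 mice aged 3 to 4 weeks as negative for a panel of lineage antibodies (among them CD45, CD31, EpCAM and TER119) and positive for SCA1. At least 25000 cells were sorted per sample and total RNA was sequenced. No group carried a treatment or an allele in the labels. The groups were thymus (3 libraries), bone, meaning femur, tibia and pelvis (3 libraries), and truncal skin (3 libraries). The bone preparation included crushing and red cell lysis that the thymus preparation did not. The thymus libraries are numbered 2, 3 and 1-3 in the labels. The labels do not say what 1-3 stands for. Nothing in them ties each library to an animal of its own. A p-value here weighs a difference between tissues against the scatter of these samples, and that scatter may be technical. If the library numbered 1-3 were a pool, the thymus spread would rest on fewer than 3 separate samples.

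Reads assigned to genes ranged from 78757872 to 116759235 per library. The markers of mesenchymal cells (9 of 9 listed genes detected in each tissue, among them Pdgfra, Pdgfrb and Col1a1) summed to 51219 to 54353 CPM (read counts scaled to a common library size) in the thymus libraries. The sum was 64283 to 65951 CPM in those of bone and 331512 to 368424 CPM in those of skin. Col1a1, Col1a2 and Col3a1 made up most of each sum, with means in skin of 97238, 80374 and 154303 CPM. Pdgfra and Pdgfrb had means of 1160 and 756 CPM in thymus, 737 and 271 in bone and 776 and 257 in skin. In the tests described below, 2 of the 9 were higher in thymus than in skin and 5 lower (19.3% and 18.3% of all genes tested). Markers of cells outside the gate were also read. Myeloid markers summed to 3007 to 4142 CPM in bone, against 16.3 to 46.8 in thymus and 36.8 to 83.7 in skin. T lineage markers summed to 62.4 to 180 CPM in thymus, against 31.5 to 42.1 for bone and 0.791 to 1.21 for skin. Each is given again below, beside channel genes. These are bulk libraries, in which fewer cells of a type and less RNA per cell cannot be told apart.

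Potassium channels let K+ leave or enter the cell and set its resting voltage. In cells that do not fire action potentials, such as fibroblasts, that voltage bears on calcium entry, volume and proliferation. Most pore subunits assemble as tetramers around a selectivity filter, a short stretch of the pore loop built around a threonine, glycine, tyrosine or phenylalanine, and glycine. The families differ in what opens them. Kv subunits (Kcna to Kcnd) open on depolarisation, and the silent modifiers (Kcnf, Kcng, Kcns, Kcnv) form channels only together with Kcnb subunits. KCNQ and EAG subunits are further voltage-gated families, and Kcnma1, Kcnn and Kcnt subunits are opened by calcium or sodium. The class of calcium- or sodium-activated pores below also counts Kcnu1, which is not one of these. Inward rectifiers (Kcnj) and two-pore subunits (Kcnk) hold the resting voltage. Kv beta (Kcnab), KCNE (Kcne), KChIP (Kcnip) and BK beta (Kcnmb) proteins are auxiliary and have no pore of their own.

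The filter lines the pore and can be read in the coding sequence of most pore families, so it is shown for genes that the results turn on. The search read codons in frame on the coding strand of GENCODE M21 transcripts (GRCm38, the assembly also called mm10). It asked for 5 codons in a row: ACN (threonine), NTN (any codon with T in the middle), GGN (glycine), TNN (any codon that starts with T) and GGN again, where N is any base. It was found in 187 of 21504 genes with a complete coding sequence (0.87%) and in 63 of the 91 channel genes. It was found in 17 of 17 Kv pore genes, 10 of 10 silent modifiers, 5 of 5 KCNQ genes, 13 of 14 inward rectifiers and 12 of 14 two-pore genes. It was not found in any of the 15 auxiliary genes (4 KCNE, 4 KChIP, 4 BK beta and 3 Kv beta). Of the 91 channel genes 11 had 2 matches, and all 11 were two-pore genes, whose protein carries a pair of pore loops. Over all 21504 genes, 12 had 2 or more matches. Of the EAG genes 1 of 8 matched and of the calcium- or sodium-activated pore genes 5 of 8 matched. A gene without a match only lacks these letters. In the lines that follow, the capitals are the matched codons, with the same number of bases (15) on either side in lower case, and the coordinates are those of the capitals.
Kcng4, higher in thymus, minus strand, exon 3, chr8:119625910-119625924: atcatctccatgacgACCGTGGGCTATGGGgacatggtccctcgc
Kcna6, higher in thymus, minus strand, exon 1, chr6:126738647-126738661: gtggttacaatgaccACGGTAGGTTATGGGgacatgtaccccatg
Kcnk2, higher in thymus, the second match, minus strand, exon 5, chr1:189256581-189256595: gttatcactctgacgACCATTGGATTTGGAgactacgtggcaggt
Kcnma1, higher in bone, minus strand, exon 8, chr14:23528413-23528427: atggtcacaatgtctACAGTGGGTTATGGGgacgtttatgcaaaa
Kcnj2, higher in bone, plus strand, exon 2, chr11:111072207-111072221: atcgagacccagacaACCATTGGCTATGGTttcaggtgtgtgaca
Kcnc2, higher in bone, plus strand, exon 3, chr10:112456229-112456243: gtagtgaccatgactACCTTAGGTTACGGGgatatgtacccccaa
Kcnn4, higher in bone, plus strand, exon 4, chr7:24379198-24379212: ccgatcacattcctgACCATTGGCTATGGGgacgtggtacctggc
Kcnk5, higher in skin, the second match, minus strand, exon 4, chr14:20144648-20144662: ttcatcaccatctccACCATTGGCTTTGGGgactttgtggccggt
So the silent modifier Kcng4, which makes no channel alone, matched as all 17 Kv pore genes did.

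Channel transcripts were a small share of the RNA, 0.0333 ± 0.000794% of gene reads in thymus, 0.0255 ± 0.0038% in bone and 0.0187 ± 0.00195% in skin (SD, n = 3). Of the 91 genes, 8 had no read in any library and 56 had enough reads to be tested. The other 35 had a mean of at most 0.188 CPM in any tissue. CPM values were scaled by the trimmed mean of M values (TMM). The shares of gene reads were not. TMM factors were 0.701 to 0.770 in skin, 1.10 to 1.18 in thymus and 1.16 to 1.23 in bone. The order of bone and skin in these shares therefore depends on the scale. A mean of at least 1 CPM was reached by 21 channel genes in thymus, 27 in bone and 20 in skin, and 7 in each tissue had at least 10 CPM.

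Levels of different genes were compared per length, with the RPKM the authors deposited (reads per kilobase of gene, scaled to the reads of the library). Thymus was led by the auxiliary gene Kcne4 at 23.0 ± 4.67 RPKM and the silent modifier Kcng4 at 18.6 ± 2.09 RPKM (SD, n = 3), and the next gene, Kcnk6, was at 5.10 ± 0.473. Bone had no such pair. There Kcne4 led at 10.7 ± 2.90 RPKM, followed by Kcnab2 at 5.50 ± 0.312, Kcnn4 at 5.19 ± 0.761 and Kcnk6 at 4.51 ± 0.732, levels that do not differ beyond their spread from one to the next after Kcne4. Skin was led by the two-pore genes Kcnk5 at 14.6 ± 2.12 and Kcnk6 at 9.48 ± 3.20 RPKM, whose libraries overlapped.

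By class, the make-up of the channel transcripts differed most, in percentage points, for silent modifiers, two-pore and KCNE genes. Silent modifiers took 25.0 ± 2.74% of the summed RPKM of all 91 genes in thymus, 4.58 ± 0.529% in bone and 1.86 ± 0.77% in skin. Kcng4 alone had 22.4% of the thymus sum. Two-pore genes took 51.2 ± 2.25% in skin, 14.0 ± 1.56% in thymus and 14.7 ± 0.546% in bone. Of the skin sum, Kcnk5 had 30.2% and Kcnk6 19.6%. The KCNE share, nearly all of it Kcne4, was 27.6 ± 4.73% in thymus, 18.0 ± 2.67% in bone and 6.13 ± 0.876% in skin. Bone had the largest mean shares of calcium- or sodium-activated pores (21.0 ± 3.51%), Kv beta genes (11.7 ± 1.26%) and inward rectifiers (9.31 ± 2.28%, against 0.504 ± 0.0373% in thymus and 0.666 ± 0.367% in skin). The Kv pore-forming share was close in its means, 10.0 ± 0.161% in thymus, 10.4 ± 2.65% in bone and 10.1 ± 0.445% in skin. These shares describe n = 3 libraries a tissue and were not tested.

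**Figure D1:**
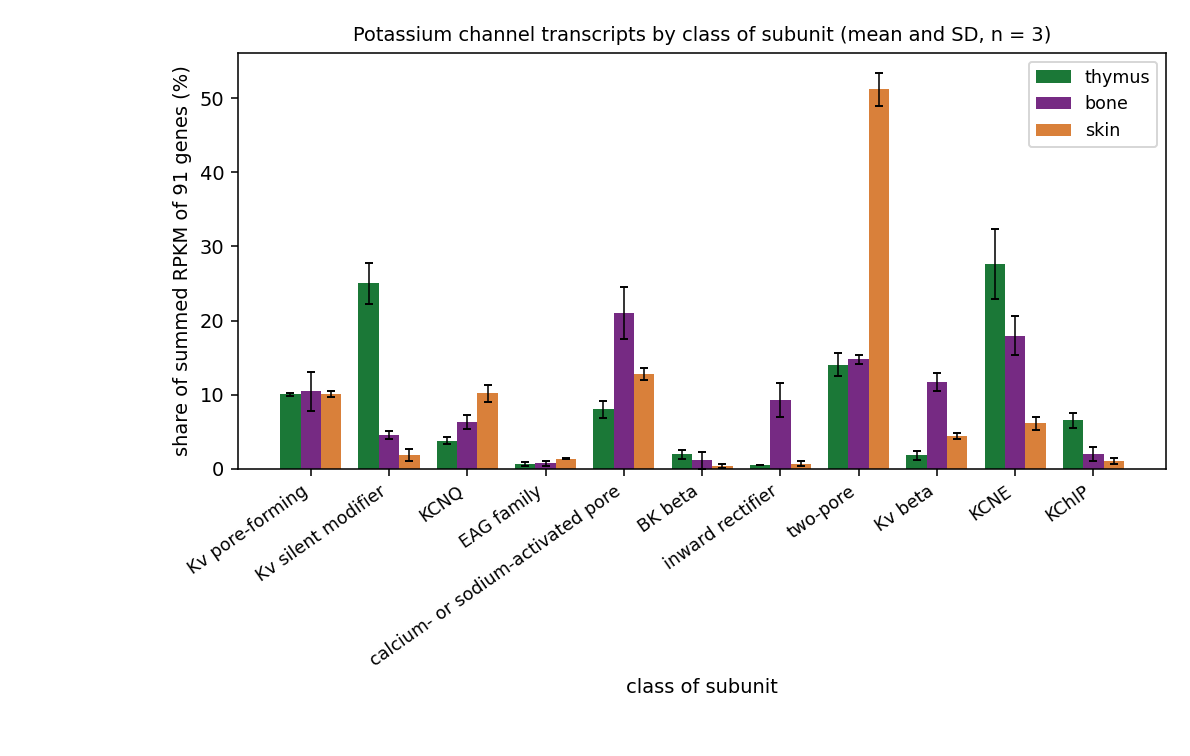
Share of the summed RPKM of 91 potassium channel genes taken by each class of subunit (y axis, percent), as the mean of 3 libraries per tissue with the SD as error bar. Two-pore genes reach 51.2% in skin, mostly Kcnk5 and Kcnk6. Silent modifiers reach 25.0% in thymus, mostly Kcng4, and the Kv pore-forming share lies near 10% in each tissue.

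The tests compared read counts between tissues for all 15635 genes with enough reads, with the quasi-likelihood test of edgeR. P-values were adjusted over all of these genes by the Benjamini-Hochberg method. A fold change is given on the log2 scale, first tissue minus second, with an approximate SE. Between thymus and bone 10 channel genes were higher in thymus (16.5% of all genes tested were) and 8 were lower (16.1% of all). Between thymus and skin 14 were higher in thymus (19.3% of all) and 8 lower (18.3% of all). Between bone and skin 16 were higher in bone (23.7% of all) and 9 lower (23.4% of all). In either direction, 32.1%, 39.3% and 44.6% of the 56 genes passed, against 32.6%, 37.6% and 47.1% of all genes, so channel genes passed about as often as other genes. The sizes differed more. The median size of the log2 fold change, sign left aside, was 2.25, 1.85 and 2.00 for channel genes in the 3 comparisons in the same order and 0.55, 0.63 and 0.76 for all genes tested. Most channel genes have few reads, which by itself spreads fold changes, and the part of read depth in this was not tested. Each pair of comparisons shares a tissue's libraries.

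A gene counted as set apart where 1 tissue differed from each of the other two the same way, passing the test and differing by at least 2-fold both times. This held for 26 of 56 channel genes and for 4046 of all 15635 genes tested (25.9%), a smaller share than among channel genes. The rule asks for a 2-fold size, which few reads also spread, and the part of read depth in this count was not tested. Higher in thymus were 7 (4.05% of all genes): Kcng4, Kcne4, Kcna6, Kcnk2, Kcnip3, Kcnmb1 and Kcnip1. Higher in bone were 7 (6.51% of all): Kcnma1, Kcnab2, Kcnj2, Kcnc2, Kcnn4, Kcnj15 and Kcns1. Higher in skin were 5 (5% of all), among them Kcnk5, Kcnk6, Kcnn3 and Kcnd1. Lower in skin were 10 (7.55% of all), of which 5 were not already named: Kcna2, Kcnt2, Kcns3, Kcnj10 and Kcna3. Lower in bone were 3 (3.86% of all), Kcnn3, Kcna5 and Kcnv2, and lower in thymus was 1 (3.83% of all), Kcnj2. The libraries of the tissues compared did not overlap for 30 of 56 channel genes between thymus and bone (49.4% of all genes), 32 between thymus and skin (51.9%) and 34 between bone and skin (58.3%).

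**Figure D2:**
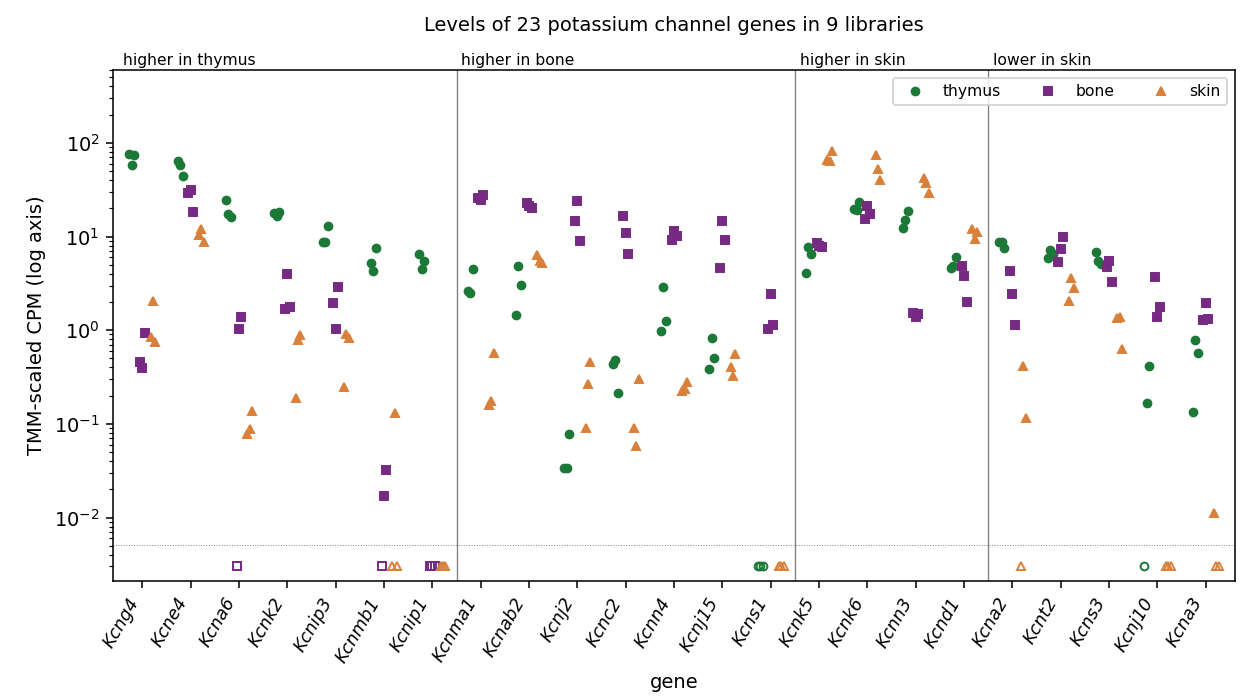
Level of 23 channel genes in each of 9 libraries (y axis, TMM-scaled CPM on a log axis), grouped by the tissue in which the gene was set apart, with open symbols under the dotted line for libraries with no read. Each thymus library lies above each bone and skin library for the 7 genes at the left, for example Kcng4 with 58.7 to 76.7 CPM in thymus and at most 2.07 elsewhere.

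Silent modifiers. Kcng4 encodes Kv6.4, a subunit that alters the gating of Kcnb channels, and lies on chromosome 8 (119623854 to 119635680, mm10). It had 76.7, 58.7 and 74.6 CPM in thymus libraries 2, 3 and 1-3, 0.456, 0.392 and 0.933 in the bone libraries and 0.854, 2.07 and 0.750 in the skin libraries. All thymus libraries were high and far above the others, and bone and skin overlapped. The log2 fold change was 6.89 ± 0.49 (SE) against bone (adjusted p = 4.4e-06) and 5.86 ± 0.46 against skin (adjusted p = 6.52e-06), the second of which was 6.45 without skin library 2. Kcns3 (Kv9.3) overlapped between thymus (6.86, 5.48 and 5.04 CPM) and bone (4.79, 5.43 and 3.29) and was lower in skin (1.35, 1.38 and 0.634), with log2 fold changes of 2.37 ± 0.41 for thymus minus skin (adjusted p = 0.000724) and 2.01 ± 0.40 for bone minus skin (adjusted p = 0.0016). Kcns1 (Kv9.1) was read in bone alone, at 1.03, 2.43 and 1.15 CPM. With a floor of 3 reads over the libraries of a tissue, it was at least 181-fold higher than in thymus (adjusted p = 0.00424) and at least 129-fold higher than in skin (adjusted p = 0.00329). Kcnv2 (Kv8.2), under 1 CPM in the mean of each tissue, had no read in bone, which puts thymus at least 58.4-fold above it (adjusted p = 0.00887). Of its 191 thymus reads 138 were in thymus library 2, without which the bound was 24.9-fold (adjusted p = 0.0347), and the call was lost in the unfiltered limma fit on RPKM (adjusted p = 0.0989).

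Voltage-gated pore genes. Of 17 Kv pore genes 12 were tested. Kcna6 (Kv1.6, chromosome 6, 126708329 to 126740674) had 24.3, 17.2 and 16.2 CPM in thymus, compared with 0, 1.02 and 1.39 in bone and 0.0787, 0.0879 and 0.138 in skin. Thymus was high in all 3 libraries and did not overlap the others. On the log2 scale the difference was 4.58 ± 1.04 against bone (adjusted p = 0.00794), or 5.22 without bone library 3, and 7.54 ± 1.25 against skin (adjusted p = 0.00108). An antisense gene, Gm26673, shares 2355 exonic bases with Kcna6, and since no source used here gives the strand setting of the counting, reads of the pair cannot be told apart. Its neighbours gave other patterns. Kcna1, 62528 bases away, passed in no comparison, and Kcna5 (Kv1.5), 172774 bases away, had no read in bone and under 1 CPM elsewhere, at least 90.5-fold higher in thymus than in bone (adjusted p = 0.00272).

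Kcna2 (Kv1.2) had 8.69, 8.79 and 7.53 CPM in thymus, against 4.24, 2.44 and 1.15 in bone and 0, 0.410 and 0.115 in skin. All skin libraries were low. This gave a log2 fold change of 5.61 ± 1.04 for thymus minus skin (adjusted p = 0.00174), 5.00 without skin library 1 and 7.16 without skin library 2, and 3.93 ± 0.98 for bone minus skin (adjusted p = 0.00739), 3.33 and 5.48 without the same libraries. Its neighbour Kcna3 (Kv1.3), 63438 bases away and known as the main Kv channel of T cells, had 0.134, 0.786 and 0.568 CPM in thymus, 1.29, 1.97 and 1.32 in bone and 1 read in all of skin. The ratio to skin was 120 for thymus (95% counting interval 21.3 to 4780, adjusted p = 0.00329) and 379 for bone (67.8 to 15000, adjusted p = 0.000806), intervals that cover counting error only, and without skin library 1 skin had no read. The call between thymus and skin was lost in the unfiltered limma fit on RPKM (adjusted p = 0.0911). T lineage markers were higher in thymus than in skin for 9 of 10 genes and in bone than in skin for 7 of 10, with Cd3e, Cd3d, Ptcra and Themis at 0 in skin and Ptcra and Themis at 0 in bone. Their sum in the thymus libraries, 62.4, 180 and 98.7 CPM, was in the same order as Kcna3. Between thymus and bone the order was the opposite, with the T lineage sum higher in thymus and the mean of Kcna3 higher in bone. Their part in the Kcna3 result was not tested.

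Kcnc2 (Kv3.2, a fast channel of neurons, chromosome 10, 112271123 to 112466304) had 16.8, 11.0 and 6.55 CPM in bone, 0.436, 0.485 and 0.216 in thymus and 0.0899, 0.0586 and 0.300 in skin. Bone was high in all 3 libraries, and thymus and skin overlapped. As a log2 fold change this was -4.91 ± 0.64 for thymus minus bone (adjusted p = 0.000112) and 6.23 ± 0.69 for bone minus skin (adjusted p = 2.27e-05), the second 7.22 without skin library 3. Its relative Kcnc4 (Kv3.4) had 2.15, 1.68 and 1.54 CPM in bone and at most 0.402 in thymus, with a log2 fold change of -3.10 ± 1.07 for thymus minus bone (adjusted p = 0.0439) that was -4.01 without thymus library 3. That call was lost in 8 of the alternatives, with an adjusted p of up to 0.225. Kcnd1 (Kv4.1, an A-type channel, chromosome X) was higher in skin (12.2, 9.36 and 11.1 CPM) than in bone (4.88, 3.76 and 2.01; log2 fold change of bone minus skin -1.61 ± 0.33, adjusted p = 0.00173). It was also higher in skin than in thymus (4.60, 4.87 and 6.11 CPM; thymus minus skin -1.07 ± 0.32, adjusted p = 0.0216), a call lost in 8 of the alternatives.

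EAG genes. Of these voltage-gated genes 4 of 8 were tested and 1 passed. Kcnh5 (EAG2) had no read in thymus and 2.00, 1.41 and 1.20 CPM in skin, at least 176-fold higher (adjusted p = 0.0174). In bone all its 67 reads were in library 1.

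Calcium- and sodium-activated genes. The members of this family went different ways. Kcnma1, the BK pore (chromosome 14, 23298694 to 24004205), had 25.9, 24.4 and 27.9 CPM in bone, 2.59, 2.48 and 4.48 in thymus and 0.157, 0.176 and 0.577 in skin, so the 3 tissues did not overlap. In the fit this came to -3.03 ± 0.42 for thymus minus bone (adjusted p = 0.000203), 3.37 ± 0.45 for thymus minus skin (adjusted p = 0.000145) and 6.40 ± 0.50 for bone minus skin (adjusted p = 2.59e-06). Without skin library 3 the last 2 were 4.25 and 7.28. The gene 4930519K11Rik shares 1016 exonic bases with it on the opposite strand.

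Kcnmb1, the BK beta1 subunit that raises the calcium sensitivity of BK in smooth muscle, did not follow its pore. It had 5.26, 4.33 and 7.47 CPM in thymus, 0, 2 and 3 reads in the bone libraries and 0, 9 and 0 reads in the skin libraries. The test gave 8.35 ± 1.40 for thymus minus bone (adjusted p = 0.000858), 9.13 without bone library 3, and 7.09 ± 1.31 for thymus minus skin (adjusted p = 0.00134), with 6.47 without skin library 1, 6.48 without skin library 3 and 12.2 without skin library 2, when skin had no read left. Kcnmb1 lies on chromosome 11 (33963013 to 33973638) inside the span of Kcnip1 (33629341 to 33993193), on the opposite strand and with no shared exonic base in GENCODE M21. Kcnip1 (KChIP1, a calcium-binding partner of Kcnd channels) had 6.47, 4.49 and 5.45 CPM in thymus and no read in bone or skin, at least 570-fold higher than in bone (adjusted p = 8.34e-05) and at least 445-fold higher than in skin (adjusted p = 7.81e-05). So the nested pair was read almost only in thymus. Markers of mural cells and smooth muscle summed to 975 to 1329 CPM in thymus, against 409 to 424 for bone and 59.9 to 140 for skin. Of the 10 markers 5 were higher in thymus than in bone and 2 lower, and 7 were higher in thymus than in skin. Des had 691 ± 140 CPM and Myh11 37.6 ± 0.768 CPM in thymus (SD, n = 3) against 12.6 ± 4.30 and 4.64 ± 2.05 in bone, Rgs5 was lower in thymus (15.3 ± 4.53) than in bone (72.1 ± 7.28), Cnn1 was near 0 in thymus (0.0359 ± 0.0622) and Myocd was at 0 in skin. Most of the mean thymus sum (1182 CPM) was thus Des, which was a small part of the bone sum. Cspg4 was also lower in thymus than in bone (thymus minus bone -3.16 ± 0.21, adjusted p = 7.19e-07). The mean levels of Kcne4, Kcna6, Kcnk2 and Kcnip3 had the same order of tissues as the mural sum, thymus, bone and then skin. The part of these cells in the results for Kcnmb1, Kcnip1, Kcne4, Kcna6, Kcnk2 and Kcnip3 was not tested.

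The small-conductance gene Kcnn3 (SK3, chromosome 3, 89520164 to 89672494) had 42.2, 36.9 and 29.5 CPM in skin, 12.4, 15.2 and 18.9 in thymus and 1.52, 1.38 and 1.50 in bone. The 3 tissues did not overlap, with bone lowest. The difference in log2 was 3.40 ± 0.22 for thymus minus bone (adjusted p = 6.56e-07), -1.23 ± 0.20 for thymus minus skin (adjusted p = 0.000455) and -4.62 ± 0.23 for bone minus skin (adjusted p = 1.21e-07). The thymus minus skin call was lost with limma on log2 of RPKM plus 0.1 (adjusted p = 0.0512). Kcnn4, the intermediate-conductance channel of blood cells and dividing fibroblasts, had the reverse order: 9.17, 11.5 and 10.2 CPM in bone, 0.982, 2.89 and 1.26 in thymus and 0.225, 0.234 and 0.277 in skin. The fold change in log2 was -2.59 ± 0.43 for thymus minus bone (adjusted p = 0.00069), 2.80 ± 0.45 for thymus minus skin (adjusted p = 0.000465) and 5.38 ± 0.50 for bone minus skin (adjusted p = 6.26e-06). Without thymus library 3, which had the most of it and the highest T lineage (180 CPM) and myeloid (46.8 CPM) marker sums in thymus, the first 2 were -3.19 and 2.19.

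Kcnn1 (SK1) was higher in skin (10.8, 11.9 and 11.5 CPM) than in bone (5.25, 5.44 and 4.08; bone minus skin -1.21 ± 0.24, adjusted p = 0.00136). It was also higher in skin than in thymus (6.80, 4.82 and 6.15 CPM; thymus minus skin -0.95 ± 0.24, adjusted p = 0.00779), a call lost in 4 of the alternatives. The sodium-activated gene Kcnt2 (Slick) was lower in skin (2.07, 3.62 and 2.81 CPM) than in thymus (5.83, 7.25 and 6.46; thymus minus skin 1.20 ± 0.32, adjusted p = 0.0115) and bone (5.34, 7.38 and 9.97; bone minus skin 1.42 ± 0.32, adjusted p = 0.00361). Kcnn1 shares 132 exonic bases with A230052G05Rik and Kcnt2 102 with 4930590L20Rik, both on the opposite strand.

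**Figure D3:**
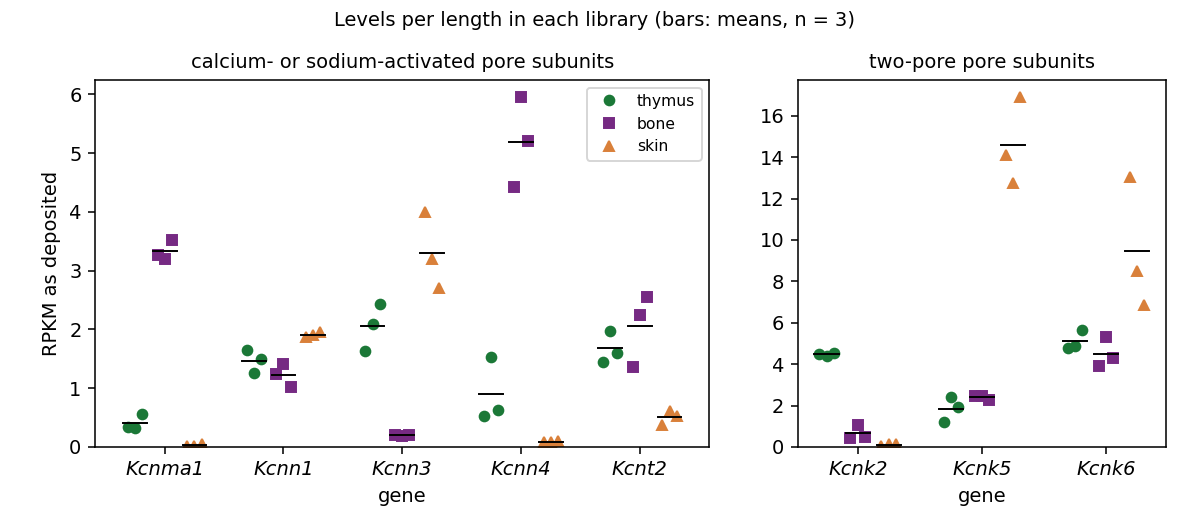
Level per length (y axis, RPKM as deposited) of 5 calcium- or sodium-activated pore genes at the left and 3 two-pore genes at the right, one symbol per library and a bar at the mean of 3. Kcnn4 (5.19 in bone) and Kcnma1 lead in bone, Kcnn3 is lowest in bone, Kcnk2 lies near 4.48 in all thymus libraries, and Kcnk5 (14.6) leads in skin.

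Inward rectifiers. Of 14 genes 6 were tested. Kcnj2 (Kir2.1, the strong rectifier that sets the resting voltage of muscle and macrophages, chromosome 11, 111066164 to 111076825) had 14.7, 24.0 and 8.90 CPM in bone, 0.0336, 0.0335 and 0.0784 in thymus and 0.0899, 0.264 and 0.461 in skin. The 3 tissues did not overlap, and bone was far above the rest. The log2 fold change was -8.34 ± 0.72 for thymus minus bone (adjusted p = 6.12e-06) and 5.86 ± 0.63 for bone minus skin (adjusted p = 1.88e-05). Thymus and skin were both low, with 4 to 40 reads a library. They differed by -2.48 ± 0.65 (adjusted p = 0.0107), and that call was lost in the 3 tests on RPKM. Without skin library 3 the values against skin were 6.52 for bone and -1.83 for thymus.

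Kcnj15 (Kir4.2) had 4.62, 14.6 and 9.12 CPM in bone, 0.386, 0.828 and 0.510 in thymus and 0.405, 0.322 and 0.554 in skin, again with bone high and the other two overlapping. On the log2 scale the difference was -4.04 ± 0.53 for thymus minus bone (adjusted p = 0.000129) and 4.46 ± 0.55 for bone minus skin (adjusted p = 4.79e-05). The antisense gene Gm49643 shares 333 exonic bases with Kcnj15. Kcnj10 (Kir4.1, known from glia) had 3.72, 1.38 and 1.78 CPM in bone, 0, 0.167 and 0.412 in thymus and no read in skin. It was at least 184-fold higher in bone than in skin (adjusted p = 0.00315). Thymus was at least 14.8-fold higher than skin (adjusted p = 0.0247), but thymus library 2 had no read either. The bound was 6.81-fold without thymus library 1-3 and 22.8-fold without thymus library 2, and the call was lost in 5 of the alternatives, among them those without thymus library 1-3, skin library 1 or skin library 2, with an adjusted p of up to 0.735.

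The bone preparations carried markers of blood cells and of cartilage and bone cells beside these genes. All 10 myeloid markers were lower in thymus than in bone and 9 of 10 were higher in bone than in skin, among them S100a9 (848 ± 152 CPM in bone, 2.08 ± 0.453 in thymus, 0.168 ± 0.0966 in skin) and Elane (at 0 in skin). B lineage markers summed to 186 to 222 CPM in bone, against 60.4 to 101 for thymus and 115 to 132 for skin, with Igll1 at 0 in thymus and skin. Ebf1, which mesenchymal cells also express, made up most of that sum outside bone, and the other 7 B lineage markers, summed after the values were seen, had 93.9 to 129 CPM in bone, 0.579 to 4.47 in thymus and 0.242 to 0.394 in skin. Cartilage and bone markers summed to 828, 1786 and 1091 CPM in bone libraries 1, 2 and 3, 24.5 to 39.2 in thymus and 13.8 to 17.6 in skin, with Bglap at 0 in thymus and Ibsp at 0 in skin. The myeloid sums in the same bone libraries were 3588, 3007 and 4142 CPM. Over the 3 bone libraries Kcnj15, Kcnn4 and Kcna3 had the order of the cartilage and bone sum, Kcnma1 had that of the myeloid sum, and Kcnj2, Kcnc2, Kcnj10 and Kcnab2 had neither. These orders do not single out a cell type. The B lineage sum (186, 222 and 207 CPM) and the T lineage sum (31.5, 42.1 and 37.0 CPM) had the order of the cartilage and bone sum. Erythroid and megakaryocyte markers (50.3, 23.7 and 81.5 CPM) had the order of the myeloid sum. The part of these cells in the bone levels of Kcnj2, Kcnj15, Kcnj10, Kcnn4, Kcna3, Kcnc2, Kcnma1 and Kcnab2 was not tested.

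Two-pore genes. These background channels gave 1 gene set apart as higher in thymus and 2 as higher in skin. Kcnk2 (TREK-1, opened by stretch and lipids, chromosome 1, 189207930 to 189344192) had 17.6, 16.6 and 18.3 CPM in thymus, with 1.69, 4.02 and 1.78 in bone and 0.191, 0.777 and 0.888 in skin. The 3 tissues did not overlap. This gave a log2 fold change of 2.81 ± 0.51 for thymus minus bone (adjusted p = 0.0014), 4.83 ± 0.56 for thymus minus skin (adjusted p = 5.16e-05) and 2.02 ± 0.51 for bone minus skin (adjusted p = 0.00698). The last call was lost when only bone and skin were fitted (adjusted p = 0.051). The antisense gene A430027H14Rik shares 604 exonic bases with Kcnk2.

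Kcnk5 (TASK-2, opened by alkaline pH, chromosome 14, 20140058 to 20181782) had 66.0, 64.8 and 81.0 CPM in skin, 4.05, 7.64 and 6.55 in thymus and 8.44, 7.92 and 7.68 in bone. Each skin library was above each library of the other tissues. As a log2 fold change this was -3.54 ± 0.23 for thymus minus skin (adjusted p = 4.4e-07) and -3.14 ± 0.22 for bone minus skin (adjusted p = 9.86e-07), and thymus and bone did not pass. Kcnk6 (TWIK-2) had 74.0, 52.6 and 40.0 CPM in skin, 19.4, 19.0 and 23.5 in thymus and 15.4, 21.0 and 17.4 in bone. The fitted difference was -1.43 ± 0.22 for thymus minus skin (adjusted p = 0.000302) and -1.63 ± 0.22 for bone minus skin (adjusted p = 9.02e-05). Markers of keratinocytes and other epithelium summed to 115, 120 and 329 CPM in skin libraries 1, 2 and 3, 23.2 to 27.8 in thymus and 3.23 to 4.70 in bone, and all 8 were above 0 in skin. Kcnk5 was highest in skin library 3 and Kcnk6 lowest there. Endothelial markers summed to 251 to 347 CPM in skin, 67.4 to 103 in thymus and 61.3 to 82.6 in bone, the order of tissues of Kcnn3. Most of that skin sum was Tek (236 ± 39.2 CPM), and without it the sums were 46.1 to 67.0 in skin, 39.1 to 50.9 in thymus and 32.4 to 46.2 in bone. Of the 7 endothelial markers 2 were higher and 2 lower in thymus than in skin, likewise 2 and 2 in bone than in skin, and none was at 0. Skeletal muscle markers summed to 17.6 to 44.5 CPM in skin, 1.96 to 2.71 in thymus and 2.14 to 3.82 in bone, with 5 of 8 lower in thymus and 6 lower in bone than in skin, Pax7 at 0 throughout and Myod1 at 0 outside skin. The part of these cells in Kcnk5, Kcnk6 and Kcnn3 was not tested.

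The 5 genes set apart as higher in skin depend on the scaling more than those of the other tissues. Collagen genes took many of the skin reads (Col1a1 had 97238 ± 7922 CPM in skin and 6963 ± 706 in thymus, SD, n = 3). With library size alone as the scale the median of all genes moved to 0.66 for thymus minus skin and 0.72 for bone minus skin on the log2 scale. On that scale Kcnk5 alone was still at least 2-fold higher in skin than in both. The log2 fold changes of Kcnk6 were then -0.81 and -0.95, and that of Kcnn3 for thymus minus skin was -0.60. The calls for Kcnn1 between bone and skin and for Kcnd1 and Kcnn1 between thymus and skin were lost, and no called difference of a named gene changed sign. The split of channel genes was then 16 higher and 6 lower for thymus minus skin (46.2% and 7.92% of all genes tested) and 18 higher and 6 lower for bone minus skin (47.8% and 8.9% of all).

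Auxiliary genes. Kcne4 encodes a single-span subunit that inhibits some Kv1 and Kv7 channels. It was the only KCNE gene of 4 with enough reads to be tested. It had 64.3, 58.3 and 43.9 CPM in thymus, compared with 29.2, 31.0 and 18.2 in bone and 10.5, 11.9 and 8.79 in skin, a graded order with no overlap. In the fit this came to 1.09 ± 0.22 for thymus minus bone (adjusted p = 0.00264), 2.41 ± 0.23 for thymus minus skin (adjusted p = 8.76e-06) and 1.33 ± 0.22 for bone minus skin (adjusted p = 0.000472). Kcnab2, the Kv beta2 subunit that binds Kv1 channels in the cytoplasm, had 22.8, 21.4 and 20.4 CPM in bone, 1.44, 4.82 and 3.06 in thymus and 6.35, 5.48 and 5.20 in skin. Bone was above both in all libraries. The test gave -2.79 ± 0.36 for thymus minus bone (adjusted p = 0.000105) and 1.92 ± 0.35 for bone minus skin (adjusted p = 0.000777), and -0.87 ± 0.34 for thymus minus skin did not pass (adjusted p = 0.0648). Kcnab2 shares 125 exonic bases with Gm16334 on the same strand.

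Kcnip3, also known as DREAM or calsenilin, binds Kcnd channels and also acts in the nucleus. It had 8.67, 8.67 and 13.1 CPM in thymus, against 1.97, 1.04 and 2.87 in bone and 0.247, 0.909 and 0.819 in skin. Thymus was high in all 3 libraries. The difference in log2 was 2.37 ± 0.52 for thymus minus bone (adjusted p = 0.00411) and 3.95 ± 0.56 for thymus minus skin (adjusted p = 0.000175). Bone minus skin was 1.58 ± 0.51 (adjusted p = 0.0246), a call lost in 3 of the alternatives, among them without bone library 3 and without skin library 1. Both KChIP genes that were high in thymus thus stood beside Kcnd1, which was not higher there. Both other KChIP genes and both other Kv beta genes passed in no comparison.

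**Figure D4:**
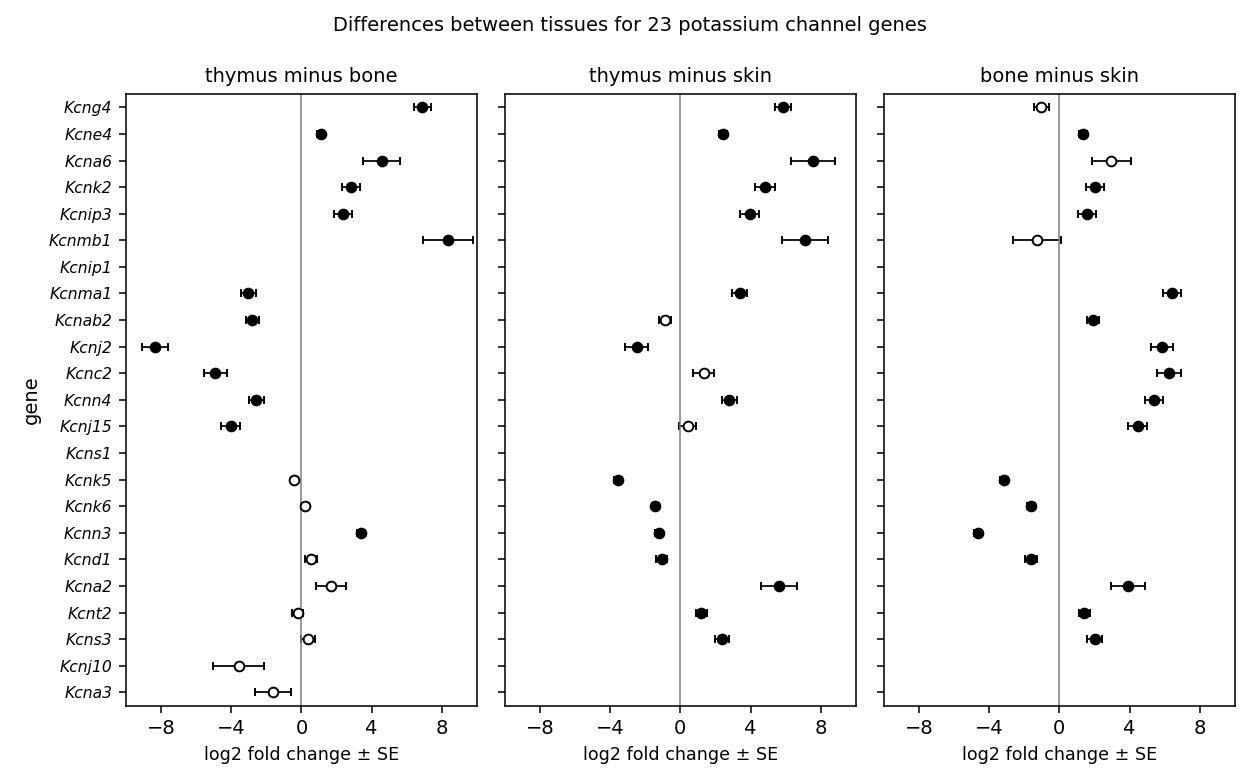
Log2 fold change with its standard error (x axis) of 23 channel genes in 3 comparisons, filled where edgeR's adjusted p was under 0.05 and open where not. Values against a tissue with 3 reads or fewer in all (Kcnip1, Kcns1, Kcnj10 and Kcna3 in part) are left out, and the values run from Kcnj2 at -8.34 to Kcnmb1 at 8.35 in thymus minus bone.

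Genes that act with the channels were described from 3 lists. Their counts stand beside the shares of all genes tested, which were 16.5% higher and 16.1% lower for thymus minus bone, 19.3% and 18.3% for thymus minus skin, and 23.7% and 23.4% for bone minus skin. Of 13 accessory proteins 9 were tested. Between thymus and bone 4 were higher in thymus and 1 lower, between thymus and skin 5 and 2, and between bone and skin 3 higher in bone and 1 lower. Lrrc55, a leucine-rich protein that modulates BK, had 51.6 ± 13.9 CPM in thymus, with 5.98 ± 2.52 in bone and 1.40 ± 0.218 in skin (SD, n = 3; thymus minus bone 3.11 ± 0.33, adjusted p = 3.76e-05). Thus the BK partners Lrrc55 and Kcnmb1 had their highest level in thymus while the pore Kcnma1 had it in bone. Another BK beta gene, Kcnmb4, had its highest mean in bone (0.624 CPM, against 0.183 in thymus and 0.236 in skin) and passed in no comparison. Amigo1, a partner of Kv2 channels, had 44.8 ± 5.75 CPM in thymus and 23.9 ± 2.28 in bone (thymus minus bone 0.90 ± 0.16, adjusted p = 0.000865). Dpp6, a partner of Kcnd channels, was higher in bone (5.94 ± 1.38 CPM) than in thymus (0.412 ± 0.121; thymus minus bone -3.85 ± 0.44, adjusted p = 4.38e-05).

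Of 23 pumps and cotransporters that bring K+ into the cell 19 were tested. Between thymus and bone 5 were higher in thymus and 6 lower, between thymus and skin 5 and 2, and between bone and skin 7 higher in bone and 4 lower. Their medians, -0.11, 0.031 and 0.14 on the log2 scale, lay near those of all genes (0.022, 0.026 and 0.034). Slc12a7, a cotransporter that carries K+ and chloride, had 22.7 ± 0.598 CPM in thymus, compared with 12.0 ± 3.16 in bone and 2.01 ± 0.785 in skin (thymus minus skin 3.49 ± 0.31, adjusted p = 5.43e-06).

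All 22 calcium entry and release channels were tested. Between thymus and bone 6 were higher in thymus and 5 lower, between thymus and skin 8 and 4, and between bone and skin 11 higher in bone (23.7% of all genes tested were) and 4 lower. Itpr1, a release channel of the endoplasmic reticulum, had 135 ± 24.5 CPM in thymus, against 72.2 ± 14.7 in bone and 18.2 ± 3.91 in skin (thymus minus skin 2.90 ± 0.21, adjusted p = 1.15e-06). Cacna1c, the voltage-gated entry channel of smooth and heart muscle, had 65.3 ± 10.8 CPM in thymus, with 23.1 ± 4.93 in bone and 3.53 ± 1.47 in skin (thymus minus skin 4.21 ± 0.32, adjusted p = 2.88e-06), the same order of means as Kcne4. Piezo1, a stretch-activated channel, was highest in bone (207 ± 16.1 CPM, against 70.4 ± 2.33 in thymus; thymus minus bone -1.56 ± 0.18, adjusted p = 3.86e-05).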

How the data were processed

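Per the submitters' processing notes, CASAVA 1.8.2, HTSeq 0.5.4 and the build mm10 were used, and no source used here names the aligner, the annotation or the strand setting. The authors deposited whole read counts per gene symbol and RPKM per gene. Lines naming no gene (5.05 to 14.8% of reads) were left out.

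The test was the robust quasi-likelihood test of edgeR 4.0.16 (R 4.3.3, TMM factors, filterByExpr by tissue), all 9 libraries in 1 fit with a mean per tissue. P-values were adjusted over 15635 genes (Benjamini-Hochberg, threshold 0.05). The printed SE is the log2 fold change divided by the root of the F statistic, an approximation. The scripts were tested on simulated data. No library was a copy of another (chi-square per degree of freedom from 92.9 to 293.2).

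The members, lists and tests were chosen with earlier results of these data known. Values in every library are given for members set apart with at least 1 CPM, the 6 largest called changes in each direction per comparison, and the 10 largest RPKM. Kcna1, Kcna5, Kcnv2 and Kcnmb4 are named outside that rule and were chosen after their values were seen. Of the other lists, up to 3 genes with the smallest p per comparison are named, except markers, which were picked after their values were seen. Some genes that these rules name are not reported here. The filter was to be counted in protein sequences. A search of coding sequences replaced this. Alternatives were other scaling factors, other filters, DESeq2 1.42.0, limma 3.58.1 on log2 RPKM, a replicate block and leaving out each library. Gene coordinates come from the RPKM tables, in mm10.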

Additional observations from a re-analysis of the deposited data

How the results depend on the processing

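Of 57 called differences of the named genes, 43 passed under every alternative that gave a value, and none of the 57 changed sign. The numbers of genes called were within 1.5 times the main count under RLE and upper quartile factors, no filter on low counts and the replicate block. With library size only, 1 gene was set apart as higher in skin instead of 5. With a filter of 1 CPM in 3 libraries, 1 was set apart as lower in bone instead of 3. With only the 2 tissues compared in the fit, 0 were lower in thymus instead of 1. DESeq2 called 15 genes lower in thymus than in bone instead of 8 and set apart 2 as lower in thymus and 5 as lower in bone. The limma fits on RPKM have no TMM scaling and compress low genes by the pseudocount. With a pseudocount of 1 or 0.1 and a filter of 1 RPKM in 3 libraries, which leaves fewer genes tested, 5 genes were lower in thymus than in bone, 4 and 3 respectively were lower in thymus than in skin, and 10 were higher in bone than in skin instead of 16. All 3 limma fits set apart 0 as lower in thymus, 1 as lower in bone and 1 as higher in skin. With a pseudocount of 1, filtered or not, 1 was set apart as lower in skin instead of 10, and without the filter 14 were lower in thymus than in bone.

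Leaving out each library in turn gave 1 to 2 genes set apart as lower in thymus and 3 to 5 as lower in bone. Differences that had not passed changed sign as follows. Kcnc4 for thymus minus skin went to 0.34 with library size only and to 0.015 in the unfiltered limma fit, and from -1.25 (without thymus 3) to 0.48 (without skin 2, and 0.066 without thymus 1-3) over the fits without 1 library. Over those fits Kcnmb1 for bone minus skin ran from -2.04 to 3.85 (without skin 2), and for thymus minus bone Kcnt2 ran from -0.41 to 0.037 (without bone 3) and Kcnh5 from -8.04 to 0 (without bone 1, when neither tissue had a read). Apart from fewer genes or samples, the cause of these changes was not tested. With the replicate number as a block, 8 genes were higher and 6 lower in thymus than in bone (10.6% and 11.1% of all genes tested), 12 and 6 in thymus than in skin (15.7% and 15.7%), and 16 and 7 in bone than in skin (21.7% and 22.1%). Under the block the calls for Kcnip3, Kcns1, Kcnc4 and Kcnv2 (thymus minus bone) and for Kcnt2, Kcnh5, Kcnd1 and Kcnj10 (thymus minus skin) were lost, with adjusted p from 0.0647 (Kcnh5) to 0.225 (Kcnc4). The library thymus 1-3 was alone in its block, so thymus rested on libraries 2 and 3 in that fit. An effect of the block and the loss of that library cannot be told apart here. The labels do not say that a number pairs samples, so the numbers were not taken as pairs. Deviations of libraries with the same number correlated at -0.068 to 0.092, and of those with different numbers at -0.116 to 0.062. These ranges overlap, and pairing was not tested. Genes at a few reads, such as Kcnj2 in thymus or Kcnmb1 in bone, have differences that depth limits most.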
